A study of Mus musculus with 13 samples.

Results

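The regions described here are 653 H3K4me3 domains that were wide in neural stem cells (NSCs) and still wide in oligodendrocyte precursor cells (OPCs). A member is a listed NSC H3K4me3 peak of at least 3000 bp that shared at least 1 bp with a listed OPC H3K4me3 peak of at least 3000 bp. They were 653 of 33292 listed NSC peaks, 653 of the 2809 wide NSC peaks (23.2%), and they covered 659 of the 762 wide OPC peaks (86.5%). Membership was set by the NSC and OPC H3K4me3 widths, so widths and fold enrichments in those lists are given below as a description, and the H3K4me3 peaks of newly formed oligodendrocytes (NFOs), the OLIG2 and H3K27me3 peaks and the DNA sequence are the readouts that the selection did not use.

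The series held 13 mouse samples, of which the ChIP-seq peak lists of both histone marks, H3K4me3 and H3K27me3, at all 3 stages and of the transcription factor OLIG2 in OPCs and NFOs were used, with 1 library per group. NSCs were bought cells from the cortex of mouse embryos at stage E14.5, grown in culture with EGF and FGF. OPCs and NFOs were taken from brain at the end of the first postnatal week by immunopanning, on a plate against PDGFRα for OPCs and with an antibody against GalC for NFOs, after microglia and endothelial cells had been depleted on a lectin plate. All cells were untreated. The labels give the strain as C57BL/6 while their culture notes give CD-1 mice for the NSCs, and the antibody labels of the histone libraries name the opposite mark to the titles. The titles were followed here. Of the members, 94.6% held the transcription start site (TSS) of a protein-coding gene, where H3K4me3 lies, and of all listed NSC H3K4me3 peaks 36.0% did. The lists titled H3K27me3 were not compared in this way, so these shares do not settle the label conflict. A culture line and freshly sorted cells were thus compared, and cell type, source, age and possibly strain cannot be told apart.

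H3K4me3 is a histone mark laid down by the KMT2 and SETD1 enzymes at active and poised promoters, and most promoters carry it over a short stretch around the TSS. A minority of promoters carry it over several kilobases, and such broad domains are known to mark genes of cell identity. H3K27me3 is the opposing mark of polycomb repressive complex 2, and OLIG2 is a basic helix-loop-helix factor, needed for the oligodendrocyte lineage, that binds the E-box CANNTG.

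The domains held 20 miRNA hairpins of the RefSeq table (GRCm38.p6), in 14 members. Their mature sequences are shown for the brain miRNA miR-9, whose 3 genes all lay in kept domains, for miR-125b, and for the miR-17 cluster, a set of growth-promoting miRNAs, with the seed (bases 2 to 8) in capitals.
miR-9-5p: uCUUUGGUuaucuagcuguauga
miR-9-3p: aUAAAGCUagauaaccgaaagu
miR-125b-5p: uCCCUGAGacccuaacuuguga
miR-17-5p: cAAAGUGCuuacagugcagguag
miR-20a-5p: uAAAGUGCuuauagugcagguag
miR-18a-5p: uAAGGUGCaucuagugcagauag
miR-19a-3p: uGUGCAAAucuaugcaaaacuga
Both arms of miR-9 were the same in Mir9-1 (mature 5p at chr3:88215613-88215635), Mir9-2 (chr13:83738821-83738843) and Mir9-3 (chr7:79505279-79505301). miR-17-5p and miR-20a-5p shared the seed AAAGUGC, and no other pair of the sequences shown shared a seed.

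The OLIG2 sites that stood in members in both OPCs and NFOs are shown as windows of 101 bp around the centre of the OPC peak (mm10/GRCm38, plus strand), with each E-box CANNTG in capitals. The motif reads the same on both strands. These are 7 of the 8 strongest shared sites outside untranslated exons, by the lower of both fold enrichments, and the window of the remaining one, at Zfp521, held no E-box and is not shown.
Ppp1r10, intron, chr17:35919151-35919251: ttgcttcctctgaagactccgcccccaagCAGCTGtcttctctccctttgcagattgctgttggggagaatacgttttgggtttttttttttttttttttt
Ptch1, exon of the non-coding gene A930032L01Rik, chr13:63567740-63567840: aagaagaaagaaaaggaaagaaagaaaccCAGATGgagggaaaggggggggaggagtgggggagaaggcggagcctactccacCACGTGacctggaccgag
Notch1, intron, chr2:26500852-26500952: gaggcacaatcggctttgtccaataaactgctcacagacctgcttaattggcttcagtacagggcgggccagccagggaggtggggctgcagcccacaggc
Mycn, intron, chr12:12938433-12938533: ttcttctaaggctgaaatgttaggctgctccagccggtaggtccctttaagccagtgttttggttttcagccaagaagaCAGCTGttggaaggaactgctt
Rsrc2, upstream of the TSS, chr5:123749427-123749527: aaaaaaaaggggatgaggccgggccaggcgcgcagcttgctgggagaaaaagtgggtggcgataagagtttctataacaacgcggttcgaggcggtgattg
Lrp1, upstream of the TSS, chr10:127622621-127622721: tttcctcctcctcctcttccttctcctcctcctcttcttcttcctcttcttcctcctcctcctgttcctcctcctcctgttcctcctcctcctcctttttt
Nectin3, intron, chr16:46497212-46497312: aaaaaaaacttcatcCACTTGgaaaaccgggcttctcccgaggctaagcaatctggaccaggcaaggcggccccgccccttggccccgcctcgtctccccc
The windows of Ppp1r10 and Mycn each held a CAGCTG, that of Ptch1 held a CAGATG and a CACGTG, that of Nectin3 a CACTTG, and those of Notch1, Rsrc2 and Lrp1 held no E-box.

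In NSCs the kept domains were 4431 bp wide at the median (3002 to 46732 bp), and in OPCs 3702 bp. The OPC peak was narrower than the NSC peak in most of them, with a median ratio of OPC to NSC width of 0.86, and was the wider in 116 of 653. The median fold enrichment over the control was 10.1 in NSCs and 7.66 in OPCs. Widths of different cell types cannot be set on 1 scale, because per the peak names the NSC library was sequenced from 1 end and the OPC and NFO libraries from both ends. Of the 2156 wide NSC peaks that were not kept, 2122 (98.4%) still overlapped a narrower OPC peak, with a median OPC width of 1951 bp.

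**Figure D1:**
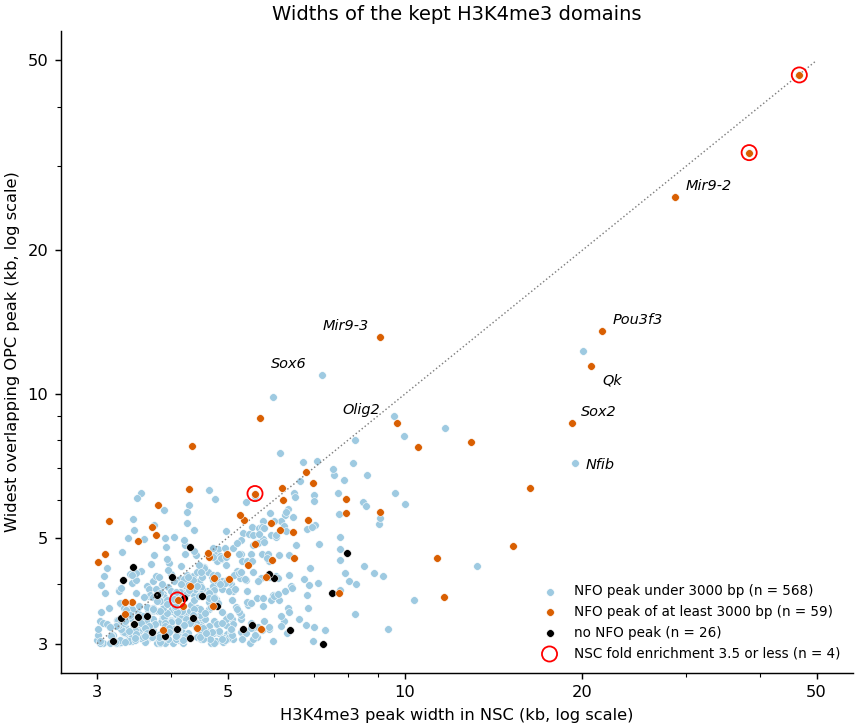
Width of each of the 653 kept domains in NSCs (x axis, kb, log scale) against the widest OPC H3K4me3 peak over it (y axis, kb, log scale), with the dotted line at equal width. Orange points are the 59 domains with an NFO peak of at least 3000 bp, black points the 26 with no NFO peak, and red circles the 4 domains of low NSC fold enrichment.

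The threshold fell within a dense range of widths. Just inside it lay Prrc2c, with 3002 bp in NSCs and 3056 bp in OPCs, and Cdk13, with 7265 bp in NSCs and 3000 bp in OPCs. Just outside lay Dek, with 3819 bp in NSCs and 2999 bp in OPCs, and Tox, with 2973 bp in NSCs and 3632 bp in OPCs.

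The 4 members of lowest NSC fold enrichment include the 2 widest. A domain on the unplaced scaffold JH584304 measured 46732 bp, 46613 bp and 46899 bp in the order NSC, OPC, NFO. A domain at the start of the assembled part of chromosome 9, over 9 predicted genes, was 38411 bp in NSCs and 32044 bp in OPCs, and 96.1% of its bases were repeats. The others lay over Gm21738 on chromosome 14 and over AY036118 and Gm26917 on chromosome 17. Their NSC fold enrichments were 1.77 to 2.47, and NFO H3K4me3 and NFO H3K27me3 peaks each covered over 90% of all 4. No OLIG2 peak lay in them. They are the only members with an NSC fold enrichment of 3.5 or less, and values that rest on them are given with and without them.

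From here on, widths given as a series are those of the NSC domain, the widest overlapping OPC peak and the widest overlapping NFO peak, in that order. These OPC and NFO peaks overlap the NSC domain and need not lie over the TSS of the gene named. Among the other members, the widest by the smaller of the NSC and OPC widths included Mir9-2, Pou3f3, Qk, Mir9-3, Bahcc1, Olig2 and Sox2. The domain of Mir9-2 (chr13:83713215-83741973) was 28759 bp wide in NSCs and 25826 bp in OPCs, and it held 5 listed NFO peaks of at most 4562 bp. Pou3f3, a POU-domain factor of neural precursors, had 21608 bp in NSCs and 13533 bp in OPCs, and its widest NFO peak was 3588 bp. The Pou3f3 domain held 2 listed peaks in OPCs and 5 in NFOs. Of all members, 49 had 2 or more peaks in OPCs and 341 in NFOs. NFO peaks were narrow over the whole list, with a median of 255.5 bp against 987 bp in OPCs. Such counts were not taken for wide NSC peaks not kept.

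Qk, an RNA-binding protein needed for myelination, had 20710 bp, 11441 bp and 9408 bp, the last being the widest NFO peak over a member outside the 4 domains above. Mir9-3 was wider in OPCs (13140 bp) than in NSCs (9074 bp), with a widest NFO peak of 3031 bp. Bahcc1, a chromatin protein gene, had 9580 bp, 8982 bp and 2104 bp. Sox2, the stem cell factor, had 19212 bp, 8685 bp and 4191 bp. The third miR-9 gene, Mir9-1, lay in a domain of 16287 bp, 6339 bp and 3419 bp, and Mir125b-1 in one of 9608 bp, 6216 bp and 2656 bp. The miR-17 cluster domain was near the threshold, with 3924 bp in NSCs and 3077 bp in OPCs.

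**Figure D2:**
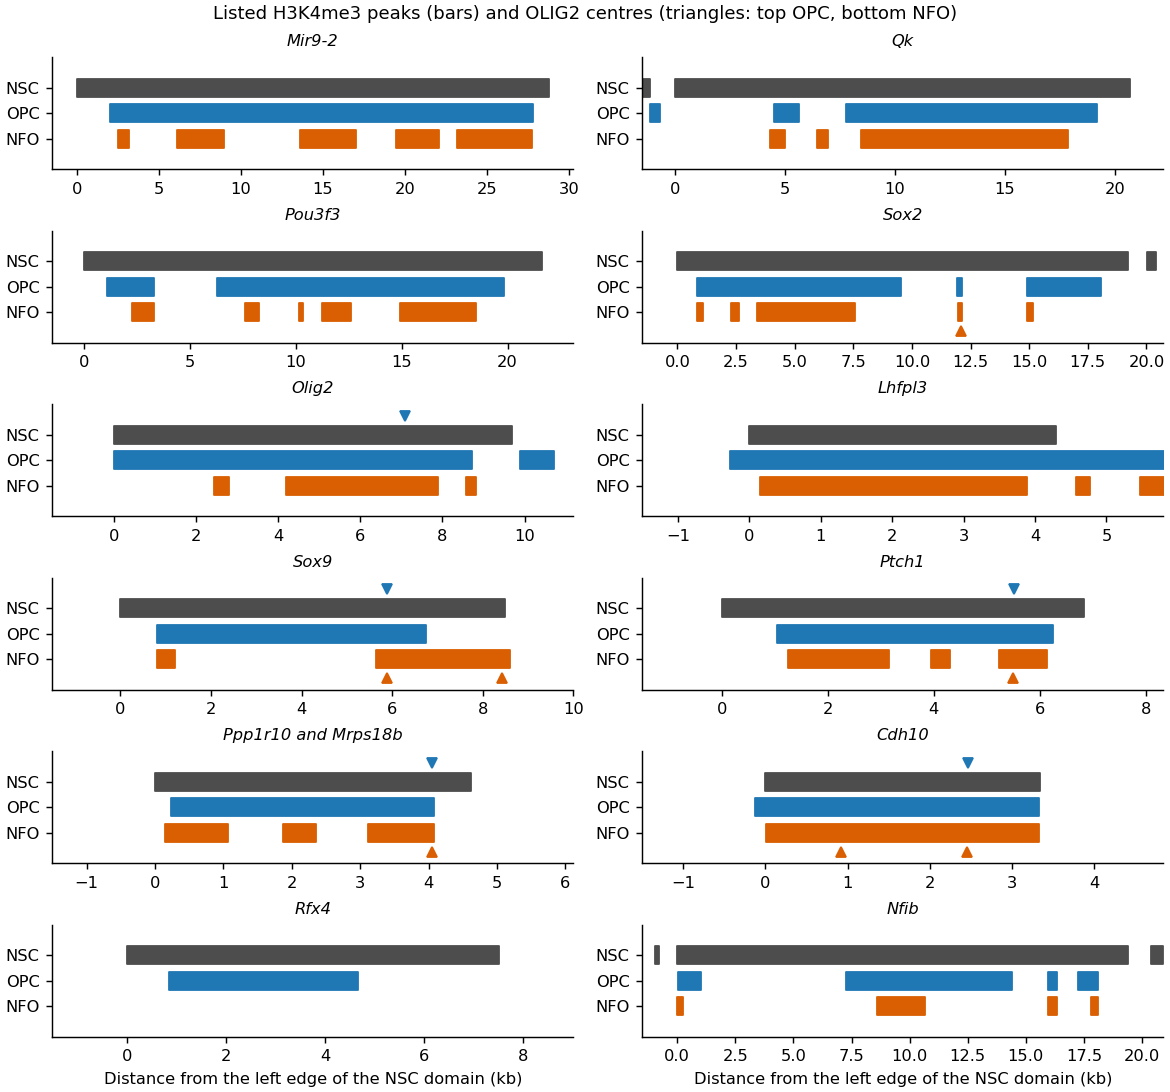
Listed H3K4me3 peaks of NSCs, OPCs and NFOs (bars) and centres of OLIG2 peaks (triangles, top OPCs and bottom NFOs) over 12 kept domains, in kb from the left edge of the NSC domain, plus strand to the right. Qk, Pou3f3, Sox2 and Nfib are split in OPCs, Mir9-2, Olig2, Sox9, Ptch1 and Ppp1r10 are split inside the domain in NFOs and not in OPCs, Cdh10 has a single bar in all 3 cell types and Rfx4 has no NFO bar.

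The members held TSSs of 720 of 21924 protein-coding genes (3.28%), of 219 lncRNA genes and of 32 miRNA genes in the GENCODE M21 annotation. A protein-coding TSS lay in 618 members (94.6%, 95% exact binomial interval 92.6 to 96.2), close to the 94.4% of wide NSC peaks not kept. A lncRNA TSS lay in 195 members (29.9%, 26.4 to 33.5) against 17.8% (16.2 to 19.5) of wide NSC peaks not kept. The members were also the wider, with a median of 4431 bp against 3506.5 bp, and so had more room for a TSS. TSSs were not counted per Mb. Only 13 members held no TSS of a protein-coding, lncRNA or miRNA gene. These intervals, here and below, cover counting error over regions of 1 library each, and regions are not replicates of a condition.

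Regulators of the oligodendrocyte lineage were the list with the largest share in kept domains, 22 of 35 genes, against 3.28% of all protein-coding genes. Since domains were chosen by their widths, this is a description of the members. Of the list, 88.6% had a TSS in an NSC peak of any width, against 58.2% of all protein-coding genes. List genes outside the members included Sox10 and Nkx6-2, with no listed peak over a TSS. Myrf, Zfp488 and Nkx6-1 were also outside, with OPC peaks of 629 bp, 1749 bp and 1915 bp. Hes1, Hes5, Nfia and Nfib stand in the neural stem cell list as well. Olig2, which specifies the lineage, had 9688 bp, 8705 bp and 3697 bp. Its neighbour Olig1 had 3883 bp, 3565 bp and 1566 bp. No NFO peak lay over a TSS of Olig2 or Olig1, and only 15.5% of all protein-coding genes had a TSS in an NFO peak. Nkx2-2, a factor of OPC differentiation, was 1 of 4 of the 23 domains of this list that were wider in OPCs (3865 bp) than in NSCs (3265 bp), with an NFO peak of 1998 bp.

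The SOXD factors Sox5 and Sox6, which hold OPCs back from maturing, were also wider in OPCs. Sox6 had 7226 bp, 10938 bp and 2818 bp, and Sox5 had 3118 bp, 3293 bp and 2404 bp. The fourth such domain was Zfp536, with 3955 bp in NSCs and 4273 bp in OPCs but only 390 bp in NFOs. Sox8, a SOXE factor of the lineage, had 7014 bp, 5982 bp and 1497 bp. Other genes of the list in these domains included Sox4, Sox11, Tcf7l2, Yy1, Id2, Tcf4 (in 2 domains), Hes1, Hes5, Prox1, Chd7, Ep300, Nfia, Nfib and Etv5. No OPC peak lay over a Hes5 TSS. All 23 domains overlapped an NFO peak, with a median of 40.5% of the domain covered, but only 2, of Olig2 and 1 of both Tcf4 domains, did so with a peak of at least 3000 bp.

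Of the OPC identity genes, 5 of 15 lay in kept domains, against 3.28% of all protein-coding genes, and 66.7% had a TSS in an NSC peak. Lhfpl3, an OPC marker, had 4294 bp, 6332 bp and 3734 bp. Vcan, Bcan and Ptprz1, genes of the extracellular matrix and its receptor in OPCs, had 4582 bp, 3263 bp and 4539 bp in OPCs. The domain with an Epn2 TSS had 6213 bp in OPCs, but no OPC peak lay over an Epn2 TSS. Pdgfra, the PDGF receptor that was used to sort the OPCs, was no member, with at most 2294 bp at its TSSs in NSCs and 9047 bp in OPCs. None of the 19 myelin genes lay in a kept domain, a count near what the 3.28% of all protein-coding genes gives for a list of this size. The Cnp TSS had 3795 bp in NSCs and 1541 bp in OPCs, and the Mbp TSS 873 bp and 1200 bp.

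Neural stem cell genes lay in kept domains in 19 of 40 cases, and all 40 had a TSS in an NSC peak. Of their 19 domains 15 overlapped an NFO peak, and Rfx4, Emx2, Sox3 and Fgfr1 had none. Nfib, a nuclear factor I gene of glial fate, had 19408 bp, 7159 bp and 2075 bp. Sox9, which drives gliogenesis, had 8502 bp, 5951 bp and 2964 bp. Fabp7, a radial glia lipid carrier, had 5420 bp, 4374 bp and 3207 bp, and with Sox2 it was 1 of the 2 domains of this list with an NFO peak of at least 3000 bp. No OPC or NFO peak lay over a Fabp7 TSS, and no NFO peak lay over a Sox2 TSS. Over all protein-coding genes 50.3% had a TSS in an OPC peak and 15.5% in an NFO peak. Notch pathway genes were members in 10 of 31 cases, SOX family genes in 10 of 19, polycomb and trithorax enzymes in 7 of 32, immediate early genes in 6 of 22, cell cycle genes in 8 of 25 and housekeeping genes in 3 of 20. Over all protein-coding genes 3.28% lay in kept domains and 58.2% had a TSS in an NSC peak. In the lists of this paragraph the latter share ran from 78.9% (SOX family) to 100% (neural stem cell and cell cycle genes). Membership requires a wide NSC peak, so these counts are a description.

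Markers of other cell types lay in kept domains about as seldom as protein-coding genes in general (3.28%). No microglia (0 of 12) or endothelial (0 of 10) marker lay in a kept domain, while 1 of 20 neuron markers, 1 of 12 astrocyte markers (Slc1a3) and 1 of 20 regulators of other tissues (Runx1) did. NFO peaks covered 36.5% of the Slc1a3 domain and 23.4% of that of Runx1.

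The NFO H3K4me3 list, which played no part in the choice of members, reached nearly all of them, though seldom at full width. An NFO peak overlapped 627 of 653 members (96.0%, 94.2 to 97.4). The share was 34.6% of all NSC peaks and 80.6% (78.8 to 82.2) of wide NSC peaks not kept. It was 94.2% (87.8 to 97.8) of the 103 wide OPC peaks not over a wide NSC peak, close to that of the members. The members had 1 NFO peak in 286 cases, 2 in 244, 3 in 79 and 4 or more in 18. NFO peaks covered a median of 32.1% of the domain, against 16.2% for wide NSC peaks not kept. The median was 33.6% for wide OPC peaks not over a wide NSC peak. NFO peaks covered at least 90% of 12 members, among them the 4 of low fold enrichment.

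An NFO peak of at least 3000 bp lay over 59 members (9.04%, 6.95 to 11.5), against 0.198% of all NSC peaks and 0.186% (0.0506 to 0.474) of wide NSC peaks not kept. Without the 4 domains of low fold enrichment the share was 8.47% (6.45 to 10.9). An NFO peak of that width lay over 2.91% (0.605 to 8.28) of the 103 wide OPC peaks not over a wide NSC peak. The NFO list held 68 such peaks in all, and 61 of them (89.7%, 79.9 to 95.8) overlapped a member. Its peaks were narrow as a whole, with a median width of 256 bp against 987 bp in OPCs and 553 bp in NSCs. After Qk, the widest NFO peaks were those of Alcam, a cell adhesion gene, with 5943 bp over a domain of 5915 bp in NSCs and 5376 bp in OPCs, and of Cpeb4, a translation regulator, with 5286 bp over 6184 bp and 6361 bp. The lncRNA Malat1 followed with 5148 bp.

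Wide NFO peaks were more frequent the wider the domain was in both NSCs and OPCs. Leaving out the 4 low domains, they lay over 9 of 298 domains whose smaller width was under 3500 bp (3.02%, 1.39 to 5.66), 9 of 149 up to 4000 bp (6.04%), 14 of 123 up to 5000 bp (11.4%), 15 of 62 up to 7000 bp (24.2%) and 8 of 17 above (47.1%, 23.0 to 72.2). The classes were cut on the widths that set membership, and a wider domain has more room to meet a wide NFO peak. The shares are therefore a description. The covered share of the domain rose less, from a median of 30.2% to 43.3%. Its Spearman rho was 0.48 with the OPC fold enrichment and 0.15 with the smaller width. These values cover 649 domains, which share their libraries, and are given as a description. The covered share is divided by the NSC width, which also bounds the smaller width, so these values cannot be ranked against each other.

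**Figure D3:**
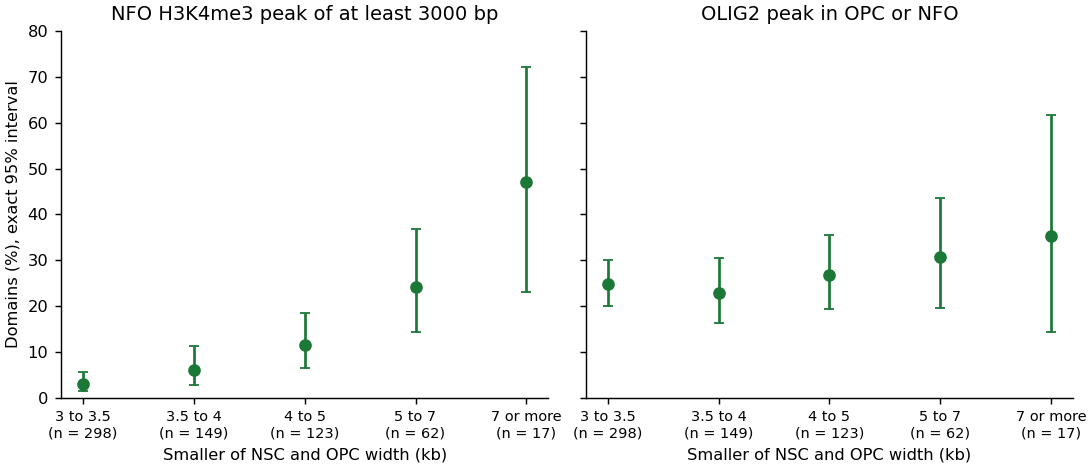
Share of kept domains (y axis, percent) with an NFO H3K4me3 peak of at least 3000 bp (left) and with an OLIG2 peak in OPCs or NFOs (right), by the smaller of the NSC and OPC widths (x axis, kb), for 649 domains without the 4 of low fold enrichment. Points are shares and bars exact binomial 95% intervals, and the left panel climbs from 3.02% to 47.1% while the intervals of all 5 classes overlap in the right.

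The 26 members with no NFO peak had lower fold enrichments than the others, with medians of 8.46 in NSCs and 5.70 in OPCs against 10.2 and 7.74. The widest of them by the smaller width were Setd5, a chromatin regulator, with 7969 bp in NSCs and 4646 bp in OPCs, Mex3b, Emx2, Foxo3, Inhbb, Rfx4, Kif26b, Rhob, the histone gene pair Hist1h2ac and Hist1h2bc, and Arid1a, a subunit of the BAF complex. Emx2, a cortical patterning factor, had 5878 bp in NSCs and 4187 bp in OPCs, and Foxo3 had 6000 bp and 4108 bp. The lower enrichment of these domains moved with the absence of an NFO peak, and its part in it was not tested.

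The position of the mark around the TSS was taken for the 529 members with 1 protein-coding gene, from the most upstream TSS inside the domain. The NSC peak reached a median of 1192 bp upstream and 3215 bp downstream. Where the OPC peak lay over that TSS, in 493 domains (93.2%), it reached 933 bp upstream and 2783 bp downstream. Wide NSC peaks not kept had 1079 bp and 2447 bp in NSCs, and 566 bp and 1351 bp in OPCs, over 1636 regions. Since the members were chosen by these NSC and OPC widths, the values are a description of the classes.

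NFO peaks lay to the side of the TSS more often than over it. A peak covered the TSS in 159 of 529 domains (30.1%, 26.2 to 34.2), and peaks flanked it on both sides in 120 (22.7%), lay only downstream in 197 (37.2%) and only upstream in 30 (5.67%). The share of domains covered in NFOs was highest at 1200 bp downstream (50.1%), against 30.1% at the TSS. In OPCs it was highest at 300 bp (99.1%). In wide NSC peaks not kept, an NFO peak covered the TSS in 335 of 1636 (20.5%, 18.5 to 22.5), a lower share than in members. Over all protein-coding genes 15.5% had a TSS in an NFO peak and 50.3% in an OPC peak. A TSS outside NFO peaks is thus not particular to the members.

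**Figure D4:**
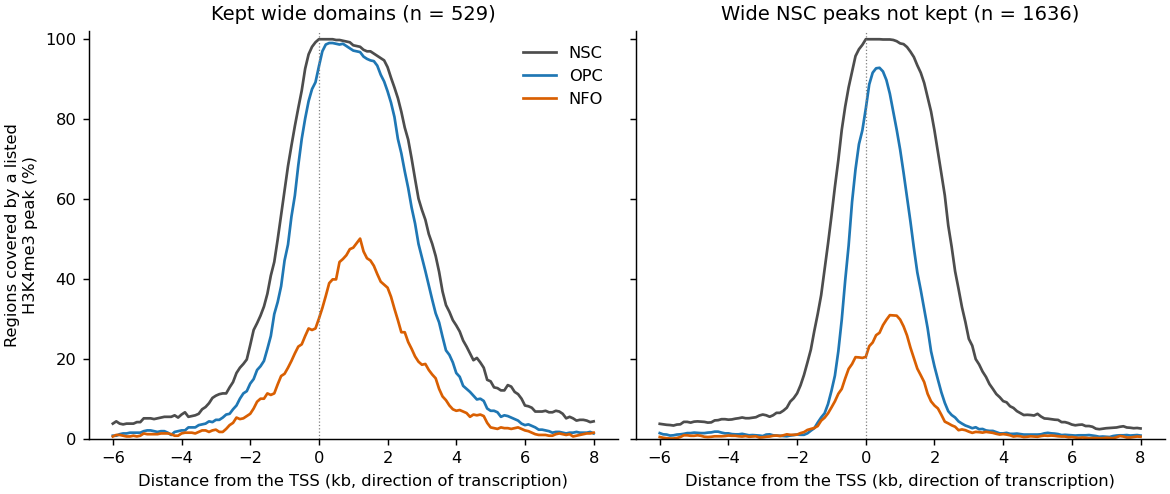
Share of regions (y axis, percent) covered by a listed H3K4me3 peak at each distance from the TSS (x axis, kb, positive in the direction of transcription), for kept domains (left) and wide NSC peaks not kept (right) with 1 protein-coding gene. The NFO curve peaks at 50.1% in kept domains and at 30.9% on the right, while the OPC curves differ by the choice of the classes.

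A minority of the kept domains held an OLIG2 peak. After the filter on FDR and fold enrichment, an OPC OLIG2 peak overlapped 99 of 653 (15.2%, 12.5 to 18.1), against 4.21% of all NSC peaks and 8.35% (7.22 to 9.60) of wide NSC peaks not kept. An NFO OLIG2 peak overlapped 110 (16.8%, 14.1 to 19.9), against 6.04% and 11.8% (10.5 to 13.3). In all 166 members (25.4%) had a peak in either cell type and 43 in both.

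Wider regions have more room for a peak, so peak centres were also counted per Mb. In OPCs the kept domains had 33.2 per Mb (exact Poisson interval 27.3 to 40.0), wide NSC peaks not kept had 23.3 (20.0 to 26.8), all NSC peaks 36.8 (34.8 to 38.7) and the genome 2.41. In NFOs the values were 36.8 (30.6 to 43.9), 32.9 (29.1 to 37.1), 51.7 (49.4 to 54.0) and 5.16. Wide OPC peaks not over a wide NSC peak had 32.1 (17.1 to 54.9) in OPCs and 42.0 (24.4 to 67.2) in NFOs. Per base, the OPC density in kept domains was above that of wide peaks not kept and its interval held that of all NSC peaks, and in NFOs it was below that of all NSC peaks. At a threshold of 4000 bp the OPC intervals of kept (29.4, 21.2 to 39.8) and not kept wide peaks (26.8, 21.7 to 32.6) overlapped, and the NFO density was the lower in kept domains (30.1, 21.8 to 40.6, against 35.7, 29.8 to 42.3), with overlapping intervals.

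Part of the OLIG2 sites in kept domains stood in both cell types. Of the 111 OPC peaks that overlapped a member, 38 overlapped an NFO OLIG2 peak (34.2%, 25.5 to 43.8). The share was much alike at wide NSC peaks not kept, 62 of 189 (32.8%, 26.2 to 40.0), and both were above the 874 of all 6566 OPC peaks (13.3%, 12.5 to 14.2). In 34 of the 38 pairs in members both centres lay within 50 bp of each other. Over all members with an OLIG2 peak, shared or not, the strongest peak of each had a median fold enrichment of 12.4 in OPCs (99 members). In NFOs it was 12.3 (110 members). All filtered peaks, which are not limited to the strongest of a region, had medians of 8.52 in OPCs and 8.92 in NFOs.

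The strongest OLIG2 site in a kept domain lay in Ppp1r10, a regulatory subunit of protein phosphatase 1, at 2005 bp from its TSS, with a fold enrichment of 109 in OPCs and 112 in NFOs. It ranked 3 among all OPC peaks and 2 among all NFO peaks. Its window, the first shown above, ends in a long run of T. Runs of 8 A or 8 T stood in 39.6% of the windows at OPC OLIG2 peaks of the members. Windows 500 bp to either side held them in 10.1%. Whether such runs bear on the fold enrichments was not tested. The next highest in OPCs were Tmem178b (42.9, and 10.6 in NFOs), the adhesion gene Nectin3 (38.1, and 15.6 in NFOs), Sox9 (36.0, and 14.4 in NFOs) and the cadherin Cdh10 (34.8, and 10.3 in NFOs). In NFOs the next highest were Spry4, an inhibitor of growth factor signalling (52.0, and 13.4 in OPCs), the splicing factor Nova1 (42.3, and 28.5 in OPCs), the Hedgehog receptor Ptch1 (34.8, and 23.0 in OPCs) and Zfp521 (32.4, and 19.0 in OPCs). Sites ranked in 1 cell type tend to be higher there by that choice. Fold enrichments of 2 libraries were not tested against each other.

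The most OLIG2 peaks in 1 member were 3 over both cell types, reached by 14 domains, of which the widest were Tnrc18, Spry4, Sox9, Zfp608 and Zfp521. Of the 23 domains of oligodendrocyte regulators 5 had an OPC peak, 5 an NFO peak and 10 either. Over all members these shares were 15.2%, 16.8% and 25.4%. Of the 166 members with a peak in either cell type only 43 had both, so a peak in 1 cell type alone was the usual case. Olig2 itself had a peak in OPCs only, 2940 bp downstream of its TSS with a fold enrichment of 12.6. The domains of Olig1 (6.77) and Sox8 (14.8) also had a peak in OPCs only. Those of Sox4 (15.4), Sox11 (10.5), Tcf7l2 (10.8) and Etv5 (8.34) had a peak in NFOs only, as did Sox2 (9.30). Notch1 had 24.9 in OPCs and 22.0 in NFOs, and the growth factor receptor domain of Fgfr2 and Ctbp2 had 20.5 and 11.9.

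The E-box CANNTG was found in 42 of the 111 windows of 101 bp at OPC OLIG2 peaks of the members (37.8%, 28.8 to 47.5) and in 39 of the 124 at NFO peaks (31.5%, 23.4 to 40.4). Over all OLIG2 peaks the shares were 45.1% (43.9 to 46.3) and 42.3% (41.5 to 43.1). Windows of the same length, 500 bp to either side and still inside the member, held the motif in 26.5% (20.3 to 33.3) and 28.8% (22.8 to 35.4), and windows at the centres of all members in 28.8% (25.4 to 32.5). The intervals of the summit and flanking windows overlapped in both cell types. Of the 38 shared sites, 15 held the motif.

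Most of the kept domains, like most wide NSC peaks not kept, had no listed H3K27me3 peak. None overlapped 557 of 653 in any of the 3 cell types (85.3%, 82.3 to 87.9), against 83.8% (82.2 to 85.3) of wide NSC peaks not kept and 77.2% of the NSC peaks that are no member. The NSC mark overlapped 44 members (6.74%, 4.94 to 8.94; 16.0% of all NSC peaks). The OPC mark overlapped 66 (10.1%, 7.90 to 12.7; 12.7% of all NSC peaks). The NFO mark overlapped 45 (6.89%, 5.07 to 9.11; 6.91% of all NSC peaks), or 6.32% without the 4 domains of low fold enrichment. For wide NSC peaks not kept the same shares were 6.68%, 12.2% and 8.58%, and their intervals overlapped those of the members in each cell type. The mark covered at least 50% of 10 members at the NSC stage, 7 at the OPC stage and 8 at the NFO stage.

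In 17 members (2.60%, 1.52 to 4.14) H3K27me3 was listed in all 3 cell types, against 3.25% (2.54 to 4.08) of wide NSC peaks not kept. They included Emx2, Hmga2, Runx1, Gata3, Irx1, Nr2f2, Efna5 and Xkr6. In the order NSC, OPC, NFO it covered 5.31%, 15.7% and 39.5% of the Emx2 domain. Gata3, a factor of other lineages, was covered over 70.9%, 100% and 100% of its domain while NFO H3K4me3 covered 71.6%. The mark was listed in NSCs alone for 21 members, including Zfp536, Cdk6 and the host gene of Mir124a-1, in OPCs alone for 24, including Prox1, Sox9 and Klf4, and in OPCs and NFOs for 19, including Irx5 and Zic2. Klf4 had 48.1% of its domain covered in OPCs. Peak lists of bulk samples do not show whether both marks lay on the same chromosomes or in different cells.

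**Figure D5:**
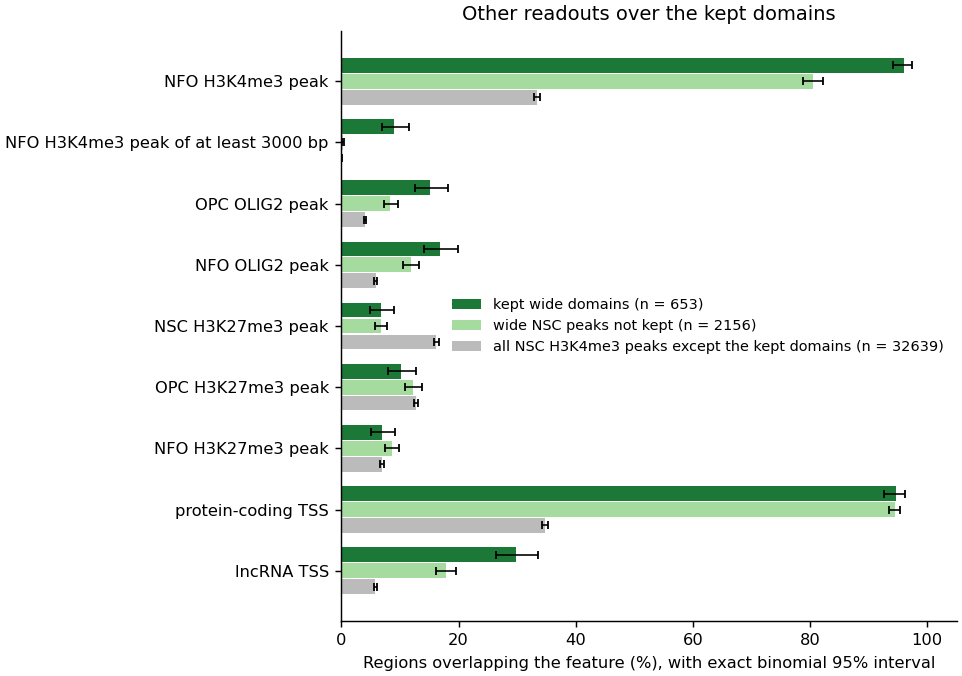
Share of regions (x axis, percent) that overlap each feature, for the 653 kept domains (dark green), the 2156 wide NSC peaks not kept (light green) and the 32639 NSC H3K4me3 peaks that are not members (grey), with exact binomial 95% intervals as black bars. The members exceed the wide peaks not kept for NFO H3K4me3, OLIG2 and lncRNA TSSs, and the intervals overlap for H3K27me3 and protein-coding TSSs. Shares are not corrected for the greater width of the members.

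The kept domains were rich in CpG. Their median ratio of observed to expected CpG was 0.659 and their median GC content 52.1%, against 0.607 and 51.7% for wide NSC peaks not kept and 0.395 and 46.3% for the NSC peaks that are no member. The 55 domains with a wide NFO peak and NSC fold enrichment above 3.5 had a lower CpG ratio (0.535) and GC content (48.6%), and a higher OPC fold enrichment (9.52), than the members as a whole (7.66). Of these 55 domains 18 had an OLIG2 peak (32.7%, 20.7 to 46.7), and the interval held the 25.4% of all members.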

How the data were processed

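ChIP-seq peak lists of 8 libraries were used, 1 per group. The methods name the DNA SMART ChIP-Seq Kit for the OLIG2 libraries. Per the submitters' processing notes, reads were aligned with Bowtie2 to mm10 (GRCm38) and peaks called with MACS2, and per the methods histone peaks were called as broad peaks and OLIG2 peaks with SPP; versions are not given in the sources used here. The deposited values are fold enrichment over the control (a ratio) and, from the authors, the −log10 FDR of each peak. Read counts are not in a peak list, so depth is unknown, and 1 library per group allows no test between conditions.

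Members were found from the listed H3K4me3 peaks as deposited. NFO H3K4me3 peaks were taken as listed, and the other peaks after the study's filter (FDR below 0.05; H3K27me3 fold enrichment over 3.5, OLIG2 over 5). Overlap meant at least 1 bp. TSSs were those of all transcripts in GENCODE M21 basic, and sequence came from RefSeq GRCm38.p6. Shares have exact Clopper-Pearson and densities exact Poisson 95% intervals (SciPy 1.17.1), which cover counting error only. Overlap code was checked on simulated peaks and against bedtools 2.31.1.

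The members and gene lists were chosen with earlier results of these data known. Genes were named by rule: those of the 10 widest members by the smaller width, list genes in members, the 5 members with most and with strongest OLIG2 peaks, the 5 with the widest NFO peak, those at the threshold, and 10 without an NFO peak. Other genes named beside them were chosen after their values were seen, and values of some genes that the rule names are not reported here. Width thresholds, peak filters and overlap rules were varied. The RIP-seq list, and the input libraries, which had no peak list here, were not used.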

Additional observations from a re-analysis of the deposited data

How the results depend on the processing

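Of 87 values for 12 results under 11 alternatives, 65 stayed within 1.5 times the reported number of domains or the 95% interval of the reported share or density, and 22 moved. With a width of 2000 bp in both lists there were 2510 kept domains, or 34.6% of the wide NSC peaks, of which 90.8% overlapped an NFO peak, 10.8% an OPC OLIG2 peak and 12.5% an NFO OLIG2 peak. With 4000 bp there were 205, or 21.3%, of which 97.6% overlapped an NFO peak, with 30.1 NFO OLIG2 peaks per Mb. With histone peaks at FDR below 0.05 and fold enrichment above 3.5, 649 domains remained and 93.8% overlapped an NFO peak. Above a fold enrichment of 5, 74.4% did, and H3K27me3 overlapped 2.22% in NSCs, 6.35% in OPCs and 2.54% in NFOs. Requiring NFO peaks to cover 50% of the member left 22.4%, and H3K27me3 cover of 50% left 1.53%, 1.07% and 1.23% in the same order. Above an OLIG2 fold enrichment of 10, 9.65% of members had an OPC and 11.5% an NFO peak, or 20.6 and 23.3 per Mb. Stricter filters keep fewer peaks by construction. Leaving out the 4 domains of low fold enrichment, an alternative chosen after seeing the data, moved none of the 12 results. No paired analysis was possible because each group holds 1 library and the labels give no replicate numbers. The peak lists carry no read counts, so the number of peaks in a list and its narrow widths, above all in NFOs, limit what an absent peak can show.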

Other observations

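Several gene families, picked here after their values were seen, had many members in kept domains. Of symbols that share a stem directly followed by a digit, 15 of 67 annotated Hist (clustered histone) genes, 7 of 12 Pcdh genes (protocadherins without the Pcdha, Pcdhb and Pcdhg clusters), 5 of 10 Arid (chromatin remodeller) genes, all 3 Spry (growth factor signalling inhibitor) genes, 3 of 4 Cpeb (translation regulator) genes and 3 of 4 Fat (atypical cadherin) genes had a TSS in a member, against 720 of 21924 over all protein-coding genes. The histone genes stand in clusters, so 1 domain can hold several, as did the domain of Hist1h2ad, Hist1h2ae, Hist1h2bf, Hist1h2bg and Hist1h3d.

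Runs of 8 A or 8 T were frequent in the OLIG2 windows, which was noticed in the printed sequences. They were found in 44 of 111 windows at OPC OLIG2 peaks of the members (39.6%, 95% exact binomial interval 30.5 to 49.4) and in 49 of 124 at NFO peaks (39.5%, 30.9 to 48.7). Windows of the same length 500 bp to either side, inside the member, held such a run in 10.1% (6.16 to 15.3) and 9.91% (6.24 to 14.7), and windows at the centres of the members in 4.45% (3.00 to 6.33). Over all OLIG2 peaks the shares were 29.0% in OPCs and 31.7% in NFOs. At OLIG2 peaks in other NSC H3K4me3 peaks they were 34.3% in OPCs and 36.7% in NFOs, within the intervals of the members. The E-box shares in the same windows differed less between summit and flank, 37.8% against 26.5% in OPCs.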
